A study of Rattus norvegicus with 24 samples.

Results

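The genes described here are 6 transcription factor genes that carry the output of the circadian clock, measured by RNA sequencing in rat lung after silica or saline. They are the activators Dbp (ENSRNOG00000021027), Tef (ENSRNOG00000019383) and Hlf (ENSRNOG00000002456), the repressor Nfil3, and the nuclear receptors Nr1d1 (ENSRNOG00000009329, REV-ERB alpha) and Nr1d2 (REV-ERB beta). They were found by gene name, and each name matched 1 of the 32489 gene IDs in the deposited expression table. The choice was made with the day 14 silica result known, so the day 14 values below are a description and carry no test for these 6 genes. The gene lists and the tests were also chosen with earlier results of these data known, so their p-values are not free of that choice. Lungs came from male Wistar rats, specific pathogen free, 5 to 6 weeks old and 170 to 190 g, kept in 12 h of light and 12 h of dark. The labels give the same age and weight for both days, so the age at collection is not stated. Day and age cannot be told apart. Silica particles at 200 mg/mL or normal saline were given into the trachea, and lungs were taken for sequencing at day 14 or day 28. This gave 4 groups of 6 libraries each, 24 in all: saline day 14, silica day 14, saline day 28 and silica day 28. The labels call the libraries of a group biological replicates and do not say how the animals were allocated.

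The circadian clock is a loop in which ARNTL (BMAL1) and CLOCK activate genes through E-box sequences, and the PER and CRY proteins they induce then repress them. DBP, TEF and HLF are related bZIP proteins of the PAR family that activate genes through the D-box, and NFIL3 is a bZIP repressor that binds the same element. REV-ERB alpha and beta bind RORE elements and repress Arntl, which closes a second loop. In lung, as in most tissues, Dbp and Nr1d1 transcripts rise and fall strongly over the day, roughly in opposition to Arntl and Nfil3. The hour at which lungs were taken is not given in the sources used here. An hour that differed between groups therefore cannot be told apart from treatment or day in any value below.

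Promoter sequences of the genes on which the results turn are shown because the E-box is the element through which ARNTL and CLOCK act on the output genes, and the RORE is the element through which the REV-ERB proteins act on Arntl. The windows run from 250 bases before to 50 bases after the RefSeq gene start in the GRCr8 assembly, 300 bases each, 5′ to 3′ on the gene's strand. Of the 6 genes, 5 had an entry, and Nr1d1 had 2. Motifs searched on both strands were the E-box CACGTG, its variant CACGTT, the D-box TTATGTAA and the RORE core AGGTCA, none of which contains another. Capitals mark the matches. The Dbp window lies at chr1:105312006-105312305 (plus strand), the Tef window at chr7:115206577-115206876 (plus strand), the 2 Nr1d1 windows at chr10:84231763-84232062 and chr10:84229405-84229704 (minus strand), and the window of Arntl, which RefSeq calls Bmal1, at chr1:176766078-176766377 (plus strand).
Dbp: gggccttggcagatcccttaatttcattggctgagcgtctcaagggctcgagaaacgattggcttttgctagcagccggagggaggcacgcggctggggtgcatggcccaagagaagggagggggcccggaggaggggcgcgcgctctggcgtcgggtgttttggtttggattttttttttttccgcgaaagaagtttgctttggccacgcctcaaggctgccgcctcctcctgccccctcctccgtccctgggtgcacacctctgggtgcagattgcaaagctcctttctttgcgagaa
Tef: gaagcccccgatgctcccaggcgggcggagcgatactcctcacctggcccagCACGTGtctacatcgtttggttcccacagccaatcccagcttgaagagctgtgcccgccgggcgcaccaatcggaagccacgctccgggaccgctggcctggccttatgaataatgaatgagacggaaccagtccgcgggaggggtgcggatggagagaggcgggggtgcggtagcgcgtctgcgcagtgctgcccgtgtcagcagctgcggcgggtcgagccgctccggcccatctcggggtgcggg
Nr1d1, entry 1: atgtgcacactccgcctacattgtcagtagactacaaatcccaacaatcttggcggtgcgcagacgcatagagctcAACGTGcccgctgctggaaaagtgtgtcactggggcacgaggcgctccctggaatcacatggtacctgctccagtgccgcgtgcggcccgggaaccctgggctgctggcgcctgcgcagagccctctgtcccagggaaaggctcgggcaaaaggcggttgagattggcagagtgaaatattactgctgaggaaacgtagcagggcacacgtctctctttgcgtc
Nr1d1, entry 2: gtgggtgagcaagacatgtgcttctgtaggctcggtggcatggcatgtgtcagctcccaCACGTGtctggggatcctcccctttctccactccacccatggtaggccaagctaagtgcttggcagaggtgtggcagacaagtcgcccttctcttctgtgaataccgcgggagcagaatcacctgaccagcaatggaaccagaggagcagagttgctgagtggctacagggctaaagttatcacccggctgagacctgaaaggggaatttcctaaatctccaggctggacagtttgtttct
Arntl: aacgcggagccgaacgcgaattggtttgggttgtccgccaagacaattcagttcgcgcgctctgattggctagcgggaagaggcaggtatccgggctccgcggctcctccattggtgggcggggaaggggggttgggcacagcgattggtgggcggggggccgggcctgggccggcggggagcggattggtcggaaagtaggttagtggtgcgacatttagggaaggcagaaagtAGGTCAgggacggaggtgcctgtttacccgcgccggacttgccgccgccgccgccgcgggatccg

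The Tef window held CACGTG from base -198 relative to the start, and the second Nr1d1 window held it from base -191. The other Nr1d1 window held CACGTT on the opposite strand from base -174, which is printed as its reverse complement, AACGTG. Arntl held AGGTCA from base -15, and Nr1d2 held AGGTCA from base -187 in a window not printed here. In the Dbp and Nfil3 windows none of these letters was found. Across the 33469 promoter windows of the table, CACGTG occurred in 6.42%, CACGTT in 4.83%, TTATGTAA in 0.893% and AGGTCA in 16.2%. These matches are a description of letters and not of bound sites.

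The authors' values are FPKM, fragments per kilobase, scaled to gene length and to the depth of the library, which allow levels to be compared between genes. Library depth, recovered from the steps of the FPKM values, ranged from 55.06 M to 84.6 M reads on genes. The lowest number of reads behind any value of the 6 genes was 325 (Nfil3, silica day 14 replicate 2), so counting error was small beside the spread between animals. Several libraries stood apart from their groups. Reads on 37 mitochondrial genes made up 5.53% ± 2.28 (SD, n = 6) of saline day 28 libraries, against 2.57% ± 0.679, 2.25% ± 0.209 and 2.73% ± 0.699 in saline day 14, silica day 14 and silica day 28 (exact permutation test, two-sided, p = 0.00649 for silica against saline at day 28). Silica day 28 replicate 1 held 16244 summed FPKM of 4 skeletal muscle markers, against 34.7 to 123.9 in all other libraries. Surfactant and other lung epithelial markers, 6 of 6 detected in every group, summed to between 27595 and 69538 FPKM in a library. At day 28, 2 of these 6 were called by limma, where 13.8% of all genes were. Scgb1a1, the club cell secretory protein gene, fell from 36418 to 15255 FPKM in the means (log2 difference -1.23, adjusted p = 0.0291), and the water channel gene Aqp5 rose by 0.45 (adjusted p = 0.0434), and neither passed with only the day 28 libraries in the fit (adjusted p = 0.111 and 0.147). At day 14, 0 of the 6 were called, where 4.37% of all genes were. Of 3 tested erythroid markers 1 was called lower at day 14, where 1.66% of all genes were. The part of these markers in the clock gene values was not tested. Lungs were sequenced whole, so fewer cells of a type and less RNA per cell cannot be told apart.

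At day 14 the silica lungs held more Dbp, Nr1d1, Nr1d2 and Tef transcript than the saline lungs, and less Nfil3. Of the 6 genes, 5 had groups that did not overlap, where 5.00% of all 20856 genes tested did so, and 4 passed the adjusted threshold of 0.05, where 4.37% of all genes did. Because the genes were chosen on this comparison, nothing is read from these counts. The median log2 difference of the 6 genes was 1.33, beside -0.0023 for all genes tested.

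Dbp, the best known clock output activator, measured 7.08, 5.70, 4.17, 3.74, 5.48 and 3.90 FPKM in saline replicates 1 to 6 at day 14. In silica replicates 1 to 6 it measured 22.0, 92.3, 16.1, 34.8, 24.2 and 29.4 FPKM. All 6 silica lungs lay above the highest saline lung, and replicate 2 stood far above the other 5. The means were 36.5 ± 28.1 and 5.01 ± 1.31 FPKM (SD, n = 6 each), a ratio of 7.28, and the difference on the log2(FPKM + 1) scale was 2.42 (SE 0.297). Without silica replicate 2 the silica mean was 25.3 ± 7.12 FPKM (SD, n = 5) and the difference 2.11.

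Tef, its more abundant relative, measured 10.7, 10.2, 28.7, 30.6, 34.8 and 38.2 FPKM in the saline lungs of day 14. In the silica lungs it measured 53.2, 74.3, 41.8, 55.4, 40.3 and 51.8 FPKM. The groups did not overlap, and saline replicates 1 and 2 lay well below the other 4. The log2 difference was 1.16, with a wide SE of 0.420. Hlf, the third activator, ranged from 4.35 to 7.39 FPKM in saline and from 5.56 to 13.3 FPKM in silica lungs, and the groups overlapped. Its log2 difference was 0.40 (SE 0.158), and 0.26 without silica replicate 2.

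Nfil3, the repressor of D-box genes, went the other way. It measured 7.30, 8.59, 13.9, 10.6, 8.54 and 8.58 FPKM in saline lungs and 5.99, 2.34, 4.87, 6.65, 6.60 and 6.64 FPKM in silica lungs. Every silica lung lay below the lowest saline lung, and replicate 2, the highest for Dbp, was the lowest for Nfil3. The log2 difference was -0.73 (SE 0.199), and -0.55 without that replicate.

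Nr1d1, the REV-ERB alpha gene, measured 11.2, 8.17, 6.59, 10.3, 6.46 and 11.7 FPKM in saline lungs of day 14. In silica lungs it measured 47.9, 83.7, 32.9, 39.0, 33.7 and 43.3 FPKM. The lowest silica lung held more than the highest saline lung, and the ratio of means was 5.16, with a log2 difference of 2.20 (SE 0.223). Nr1d2, the REV-ERB beta gene, measured 5.12, 2.86, 4.00, 3.78, 3.48 and 3.38 FPKM in saline and 13.6, 22.5, 11.1, 8.07, 7.88 and 16.6 FPKM in silica lungs. Its groups were also apart, with a ratio of means of 3.53 and a log2 difference of 1.51 (SE 0.273). In RefSeq, Nr1d1 overlaps Thra on chromosome 10, and Hlf overlaps LOC134480714. The strand setting of the counting is not given in the sources used here, so how reads of an overlap were counted is not known. Thra, the thyroid hormone receptor alpha gene, measured 53.7 ± 4.69 FPKM in saline and 49.6 ± 6.56 FPKM in silica lungs of day 14 (SD, n = 6 each).

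**Figure D1:**
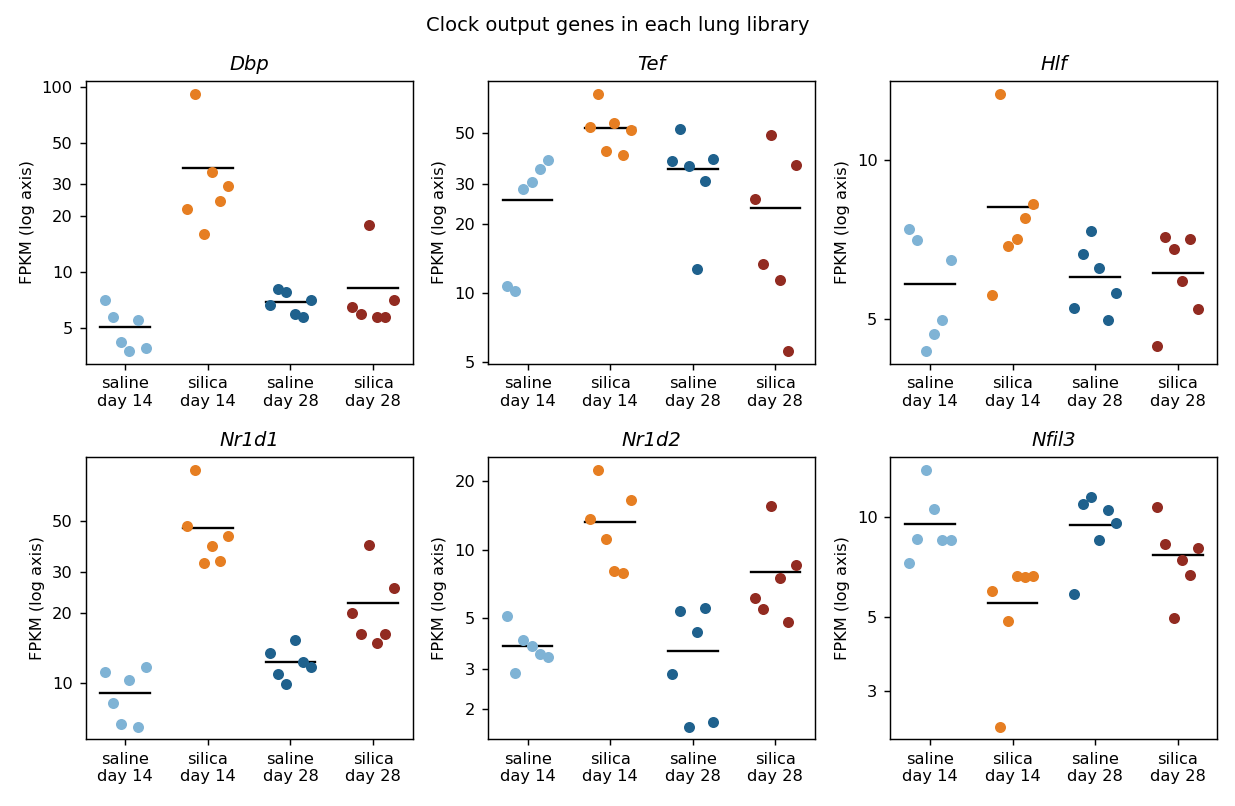
FPKM on a log axis of each clock output gene in each of the 24 lung libraries, by group; points are libraries in replicate order and lines are group means of 6. At day 14 the silica points of Dbp, Tef, Nr1d1 and Nr1d2 lie above all saline points and those of Nfil3 below them, while at day 28 the groups of all 6 genes overlap.

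At day 28 the excess had become smaller or was not seen, and the REV-ERB pair alone passed the test. The day 28 groups share no library with day 14, although the spread was estimated over all 24 libraries. The 6 genes were tested by limma across all 20856 genes, with Benjamini-Hochberg adjustment. Of the 6 genes, 2 were called, both higher in silica, and 4 were not. Among all genes 13.8% were called in either direction and 5.30% higher, so a call by itself was not rare in this comparison. The groups overlapped for all 6 genes, and 2.92% of all genes had groups that did not.

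Nr1d1 measured 13.4, 10.9, 9.86, 15.3, 12.2 and 11.7 FPKM in the saline lungs of day 28. In silica lungs it measured 20.0, 16.2, 39.5, 14.9, 16.2 and 25.7 FPKM. Silica lungs lay above the highest saline lung in 5 of 6, and the groups overlapped at silica replicate 4. Nr1d1 rose by 0.73 on the log2(FPKM + 1) scale (SE 0.223, adjusted p = 0.0337), with means of 22.1 ± 9.42 against 12.2 ± 1.92 FPKM (SD, n = 6 each). Thra measured 50.5 ± 4.13 FPKM in silica and 40.3 ± 5.41 FPKM in saline lungs of day 28, and its part in the Nr1d1 value was not tested.

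Nr1d2 measured 2.85, 5.38, 1.67, 4.33, 5.56 and 1.74 FPKM in the saline lungs of day 28. In silica lungs it measured 6.16, 5.50, 15.5, 7.52, 4.79 and 8.60 FPKM. Of the silica lungs, 4 lay above all saline lungs. Nr1d2 rose by 0.98 (SE 0.273, adjusted p = 0.0240), a ratio of means of 2.24.

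Both calls lay near the threshold. With only the 12 libraries of day 28 in the fit, neither passed (adjusted p = 0.0667 for Nr1d1 and 0.0757 for Nr1d2, by limma). Without silica day 28 replicate 3, the highest for both genes, the differences were 0.55 (adjusted p = 0.0873) for Nr1d1 and 0.78 (adjusted p = 0.0636) for Nr1d2. Nr1d1 also missed the threshold without silica replicate 6 (0.67, adjusted p = 0.0593) or without saline replicate 1, 2, 3 or 6 (0.68 to 0.76, adjusted p = 0.0554 to 0.0793), and Nr1d2 without saline replicate 1 or 6 (0.94 and 0.85, adjusted p = 0.0591 and 0.0541). With the percent of mitochondrial reads as a covariate the differences were 0.65 (adjusted p = 0.458) and 0.69 (adjusted p = 0.499), and without the 3 saline libraries richest in mitochondrial reads 0.71 (adjusted p = 0.329) and 0.90 (adjusted p = 0.287). The direction was the same in every one of these alternatives.

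The D-box factors did not pass at day 28. Dbp measured 6.66, 8.09, 7.81, 5.90, 5.68 and 7.07 FPKM in saline and 6.45, 5.90, 18.1, 5.72, 5.73 and 7.06 FPKM in silica lungs. Apart from silica replicate 3, every silica value lay within the saline range. The log2 difference was 0.11 (95% confidence interval -0.51 to 0.72, adjusted p = 0.836), and -0.13 without replicate 3. Tef ranged from 5.61 to 49.1 FPKM in silica and from 12.8 to 52.5 FPKM in saline lungs, with a difference of -0.75 (interval -1.62 to 0.12, adjusted p = 0.232). Hlf was nearest to equal, at 6.10 ± 1.10 against 6.00 ± 0.899 FPKM (SD, n = 6 each) and a difference of 0.01 (interval -0.31 to 0.34, adjusted p = 0.962). Nfil3 differed by -0.27 (interval -0.69 to 0.14, adjusted p = 0.364).

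**Figure D2:**
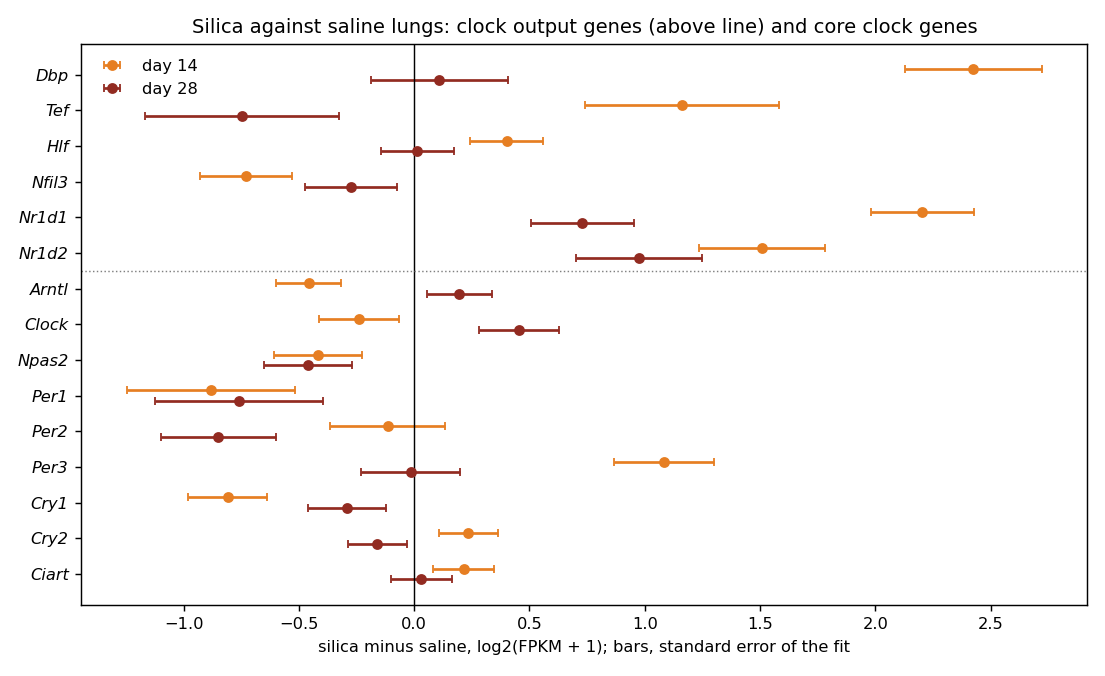
Difference between silica and saline lungs on the log2(FPKM + 1) scale with its standard error, at day 14 and day 28 (6 libraries a group), for the clock output genes above the dotted line and core clock genes below it. Dbp lies at 2.42 at day 14 and at 0.11 at day 28, Nr1d1 at 2.20 and 0.73, and Nr1d2 at 1.51 and 0.98.

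The change of the silica difference between the days, which uses the day 14 libraries and is given without a test, was largest for Dbp among the 6 genes, at -2.32 (SE 0.420). Tef followed at -1.91 (SE 0.594) and Nr1d1 at -1.47 (SE 0.315), while Nr1d2 stood at -0.53 (SE 0.386), Hlf at -0.39 (SE 0.224) and Nfil3 at 0.45 (SE 0.282). Within the silica lungs, day 28 against day 14, the Dbp mean went from 36.5 to 8.15 FPKM, a difference of -1.91 (SE 0.297). All day 28 silica lungs except replicate 3 lay below every day 14 silica lung. These values include the day 14 libraries on which the genes were chosen, so they are a description too.

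Between the saline lungs of the 2 days the groups of the 6 genes overlapped, and the differences, given without a test, had wide intervals. Dbp differed by 0.41 (SE 0.297, 95% confidence interval -0.21 to 1.02), Nr1d1 by 0.42 (SE 0.223), Tef by 0.49 (SE 0.420, interval -0.38 to 1.36), Hlf by 0.05 (SE 0.158), Nfil3 by -0.01 (SE 0.199) and Nr1d2 by -0.14 (SE 0.273), each as day 28 minus day 14. Saline Tef varied most, from 10.2 to 52.5 FPKM over both days.

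By group means, Dbp was highest in silica day 14 (36.5 FPKM), followed by silica day 28 (8.15), saline day 28 (6.87) and saline day 14 (5.01), and each neighbouring pair of groups overlapped. Nr1d1 had the same order, at 46.8, 22.1, 12.2 and 9.06 FPKM, again with overlapping neighbours. Nr1d2 ran from 13.3 and 8.02 FPKM in the silica groups to 3.77 in saline day 14 and 3.59 in saline day 28. Nfil3 had the reverse order, from 9.58 FPKM in saline day 14 to 5.52 in silica day 14. Tef was the most abundant of the 3 activators in every group mean, between 23.6 FPKM in silica day 28 and 52.8 in silica day 14.

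Ratios within a library set opposing genes against each other. Dbp over Nfil3 ranged from 0.299 to 0.970 in saline day 14 lungs and from 3.32 to 39.4 in silica day 14 lungs. At day 28 it ranged from 0.539 to 1.14 in saline and from 0.599 to 3.63 in silica lungs, where replicate 3 gave the highest value and the median was 0.812. Nr1d1 over Arntl ranged from 0.546 to 0.866, from 2.56 to 15.1, from 0.823 to 1.48 and from 0.989 to 4.42 in saline day 14, silica day 14, saline day 28 and silica day 28. Both ratios exceeded 1 in 6 of 6 silica day 14 lungs and in 0 of 6 saline day 14 lungs. The make-up of the PAR group is given without a test. Dbp made up a median of 11.7% (8.03 to 28.1) of the summed FPKM of Dbp, Tef and Hlf in saline day 14 lungs and 33.2% (24.9 to 51.3) in silica day 14. At day 28 it made up 13.7% (12.0 to 23.7) in saline and 23.4% (14.5 to 31.1) in silica lungs. The silica and saline ranges overlapped on both days. At day 28 the summed FPKM had a median of 50.4 in saline and 31.6 in silica lungs, against 6.87 and 6.18 for Dbp alone.

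**Figure D3:**
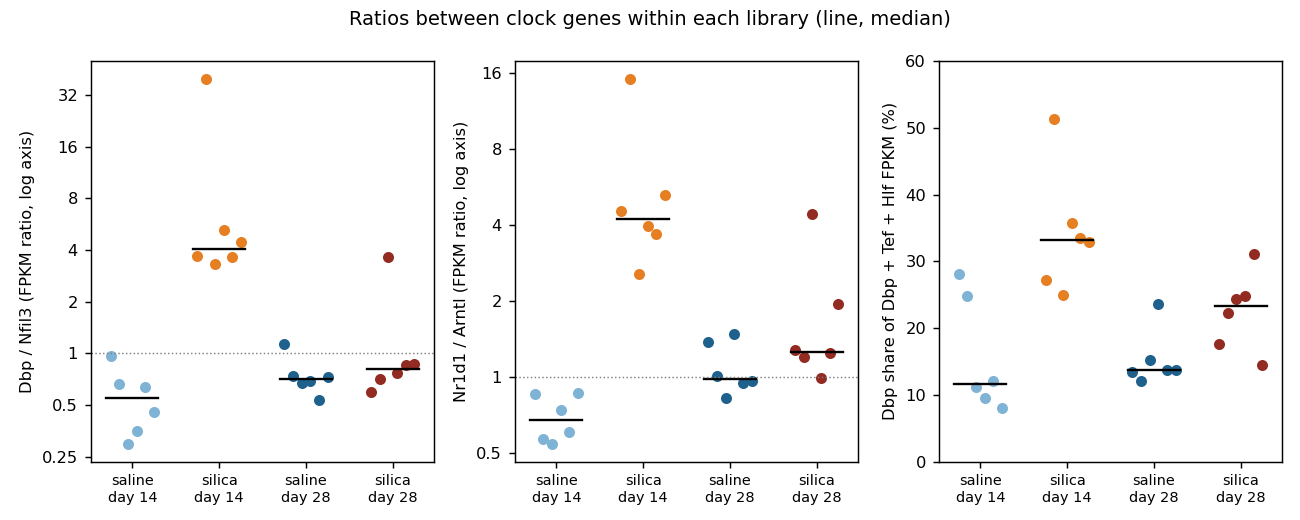
Ratio of Dbp to Nfil3 and of Nr1d1 to Arntl (log axes) and the share of Dbp in the summed FPKM of Dbp, Tef and Hlf (percent, linear axis) in each of the 24 libraries, by group; lines are group medians. The 6 silica day 14 lungs lie at 3.32 or above for Dbp over Nfil3, and silica day 28 replicate 3 reaches 3.63.

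Silica lungs of the same group differed widely, and the same libraries stood out across genes. Silica day 14 replicate 2 was the highest of its group for Dbp, Tef, Hlf, Nr1d1 and Nr1d2 and for Clock, Per2, Per3 and Cry2, and the lowest for Nfil3, Arntl and Npas2. Silica day 28 replicate 3 was the highest of its group for Dbp, Tef, Nr1d1, Nr1d2, Per2 and Per3, and the lowest for Nfil3, Arntl, Npas2 and Cry1. Its Nr1d1 of 39.5 FPKM lay within the silica day 14 range of 32.9 to 83.7 FPKM.

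Deviations from the group mean, over 24 libraries, measured how the genes moved together apart from the groups. Dbp and Arntl were opposed, with Pearson's r = -0.816 (permutation p = 0.002, adjusted 0.021 over 21 relations) and Spearman's rho = -0.471 (permutation p = 0.0397, adjusted 0.203). Of 20855 genes ranked by r with Dbp, Arntl was the lowest. Without silica day 14 replicate 2 and silica day 28 replicate 3, the libraries farthest from the median, r was -0.507 (permutation p = 0.077). The group means were not taken again for that value, so they still include these 2 libraries. The relation past the threshold was not seen without these libraries. Within groups r was -0.937 in silica day 14 (exact permutation p = 0.0125) and -0.916 in silica day 28 (exact permutation p = 0.0792), but -0.140 in saline day 14 and -0.044 in saline day 28. Dbp and Nr1d1 gave r = 0.692 (permutation p = 0.0109, adjusted 0.0391) and rho = 0.407 (permutation p = 0.0745, adjusted 0.203), and r = 0.227 without the same libraries, the group means again kept. Within groups it was 0.888 and 0.928 in silica day 14 and day 28, and -0.047 and -0.762 in saline day 14 and day 28. Of the 15 pairs among the 6 genes, 7 passed the adjusted threshold by r, from -0.631 for Nfil3 with Nr1d1 to 0.692, and none did by rho. Tef had no pair past the threshold. The points share depth and tissue make-up within a library, whose part was not tested.

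**Figure D4:**
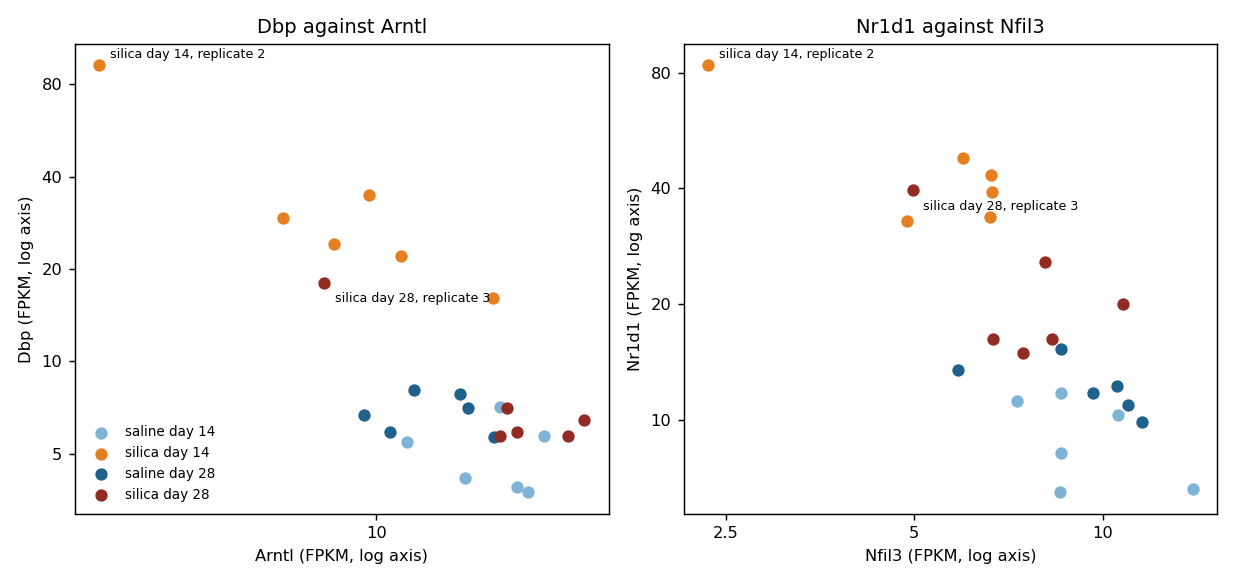
Dbp against Arntl and Nr1d1 against Nfil3, FPKM on log axes, 1 point per library coloured by group. Silica day 14 replicate 2 lies at 92.3 FPKM of Dbp and 5.53 FPKM of Arntl, and silica day 28 replicate 3 at 18.1 and 8.94 FPKM, apart from the other silica day 28 lungs.

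Among tested genes with an assigned symbol, provisional names being skipped, those with the most similar deviations over the 24 libraries included other clock genes. For Dbp they were Siglech (r = 0.803), Nptx1 (0.707), Nr1d1 (0.692), Per3 (0.688) and Nol7 (0.669). For Nr1d1 they were Nptx1 (0.748), Spop (0.737), Dbp (0.692), Nr1d2 (0.666) and Per3 (0.620). With provisional names kept, Nr1d1 and Per3 ranked 3 and 5 of 20855 for Dbp. Dbp, Nr1d2 and Per3 then ranked 4, 6 and 9 for Nr1d1. The leading gene for Tef was Mlc1 (0.730), for Hlf Clstn2 (0.802), for Nfil3 Ntmt1 (0.770) and for Nr1d2 Cd2ap (0.772), and no clock gene was among the first 5 of these. These are leading values among 20855 genes each, less those with provisional names, and are given as a description.

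The core clock loop was examined as a list of 18 genes, all of them tested by limma over all genes. At day 14, 1 was called higher and 1 lower, where 2.70% and 1.66% of all genes were. The list median was -0.12 beside -0.0023 for all genes. Unadjusted limma p was under 0.05 for 8 of the 18, as for 4244 of all 20856 genes. Per3, a period gene, rose by 1.08 (SE 0.215, adjusted p = 0.00379), from 5.43 ± 0.977 to 13.0 ± 4.74 FPKM (SD, n = 6 each), and its groups did not overlap. Cry1, a cryptochrome repressor, fell by 0.81 (SE 0.171, adjusted p = 0.00647), from 10.9 ± 1.20 to 5.89 ± 1.43 FPKM, also without overlap. Arntl, the activator of the loop, measured 13.1, 14.3, 12.1, 13.8, 10.7 and 13.5 FPKM in saline and 10.6, 5.53, 12.9, 9.85, 9.14 and 8.19 FPKM in silica lungs. Its difference of -0.46 (SE 0.140, adjusted p = 0.0630) missed the threshold. Clock, Npas2, Per1, Per2, Cry2 and Ciart did not pass, with differences of -0.24, -0.42, -0.88, -0.11, 0.24 and 0.21.

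At day 28, 1 of the 18 was called higher and 1 lower, where 5.30% and 8.47% of all genes were. The list median was -0.02 beside -0.03 for all genes. Unadjusted limma p was under 0.05 for 5 of the 18, as for 6455 of all 20856 genes. Per2 fell by 0.85 (SE 0.250, adjusted p = 0.0296), from 8.10 ± 3.80 to 3.82 ± 1.04 FPKM. Bhlhe41, a repressor induced by the loop, rose by 0.71 (SE 0.191, adjusted p = 0.0210), from 3.14 to 5.61 FPKM in the means. Per2 missed the threshold when saline replicate 1, 2 or 6 was left out, and also when silica replicate 1 or 4 was (log2 differences from -0.97 to -0.67 over all 12 libraries left out in turn). Bhlhe41 missed it without saline replicate 1 (0.58, adjusted p = 0.0640). With only the day 28 libraries in the fit neither passed (adjusted p = 0.0647 and 0.0650), and with the mitochondrial covariate the differences were -0.59 and 0.30 (adjusted p = 0.528 and 0.655). Arntl differed by 0.20 (adjusted p = 0.355), Clock by 0.45 (adjusted p = 0.0780) and Per3 by -0.01 (adjusted p = 0.969). The silica difference changed between the days for 2 of the 18 genes, 1 upward and 1 downward, where 5.02% and 4.91% of all genes were called, 9.93% in all. Arntl changed by 0.65 (SE 0.198, adjusted p = 0.0408) and Per3 by -1.10 (SE 0.305, adjusted p = 0.0291), so Arntl changed in the direction opposite to Per3. Arntl lost this call in most of the fits that left out 1 library (0.53 to 0.75), but kept it without silica day 14 replicate 2 or silica day 28 replicate 3, and Per3 lost it without saline day 28 replicate 1 or 2 or silica day 28 replicate 4 (-1.24 to -0.94). Within saline lungs Clock fell by 0.60 from day 14 to day 28 (SE 0.172, adjusted p = 0.0151), the 1 call among the 18 genes there, where 25.2% of all genes were called. With the mitochondrial covariate Clock differed by -0.49 and did not pass (adjusted p = 0.369).

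Of 10 genes reported as bound and repressed by REV-ERB in mouse, 1 was called at day 14, Cry1, lower, and 0 at day 28 by limma, where 4.37% and 13.8% of all genes were called. At day 14, 4 of the 10 had an unadjusted limma p under 0.05, as had 4244 of all 20856 genes. These 4 were Cry1, Ccl2, Npas2 and Arntl. At day 28, 3 of the 10 had an unadjusted limma p under 0.05, as had 6455 of all 20856 genes. They were Lpl, Clock and Npas2 (0.0082, 0.0149 and 0.0244). In limma-voom 1 of the 10 passed, as did 2454 of all 20856 genes. The list median was -0.40 at day 14 and 0.23 at day 28, beside -0.0023 and -0.03 for all genes. Ccl2, a monocyte chemokine in that list, measured 9.78 and 2.71 FPKM on average in saline and silica lungs of day 14 (difference -1.24, adjusted p = 0.137). Of 5 tested targets of the PAR bZIP factors known from mouse liver, 0 were called at day 14 by limma and 1 at day 28. Over all genes the shares called were 4.37% and 13.8%, the latter with 8.47% lower. At day 14 Por alone of the 5 had an unadjusted limma p under 0.05 (0.0043), as had 4244 of all 20856 genes. In limma-voom 1 of the 5 passed at day 14, as did 998 of all 20856 genes. Alas1, the first enzyme of haem synthesis, fell by 0.93 (SE 0.220, adjusted p = 0.0129), from 113 to 55.7 FPKM in the means. The Alas1 difference was -0.55 with the mitochondrial percent as a covariate and -0.54 without the 3 saline libraries richest in mitochondrial reads, and it passed in neither (adjusted p = 0.479 and 0.331). Por, the electron donor of microsomal P450 enzymes, had a silica difference of 0.35 at day 14 (adjusted p = 0.0717) and -0.26 at day 28 (adjusted p = 0.114), and the change between the days was -0.61 (SE 0.157, adjusted p = 0.0220). Of 9 rhythmic output genes of many tissues, 1 was called at each day, where 4.37% and 13.8% of all genes were. Unadjusted limma p was under 0.05 for 5 of the 9 at day 14 and 3 at day 28. Of all 20856 genes, 4244 and 6455 had such a value. Cdkn1a, a cell cycle inhibitor, fell by 0.68 at day 14 (adjusted p = 0.0455) and Tsc22d3, a glucocorticoid-induced gene, fell by 0.92 at day 28 (adjusted p = 0.0453). Both calls were lost in most fits that left out 1 library.

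In the authors' deposited table, silica over saline at day 14 had a log2 fold change of 2.87 for Dbp, 2.37 for Nr1d1, 1.82 for Nr1d2, 1.05 for Tef, 0.49 for Hlf and -0.80 for Nfil3. At day 28 the authors' deposited table gives 0.90 for Nr1d1 (FDR 0.00669) and 1.21 for Nr1d2 (FDR 0.0151), and FDR values from 0.450 to 0.819 for the other 4 genes. For silica day 14 over silica day 28 the authors' deposited table lists an FDR of 0.000448 for Dbp and 0.0454 for Nr1d1. These values do not equal the log2 ratio of mean FPKM (0.30 against 0.25 for Dbp at day 28), and how they were made is not given in the sources used here.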

How the data were processed

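Lung mRNA of 24 rats was selected with poly-T beads after Trizol extraction and sequenced, per the labels' protocols. The deposited values are FPKM per gene and library, made by the authors. The submitters' processing notes name HISAT2 2.1.0, HTSeq 0.9.1, FastQC 0.11.9 and cutadapt 4.0 without roles. The authors also deposited, for 3 comparisons, a linear fold change, its log2 value and p-values with FDR, whose tool is not given in the sources used here. The 6 genes, the gene lists and the tests were chosen with earlier results of these data known.

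FPKM values were tested as log2(FPKM + 1) in R 4.3.3 by limma-trend (limma 3.58.1, 4 group means over 24 libraries, two-sided, Benjamini-Hochberg, called under 0.05) on 20856 genes with at least 0.5 FPKM in at least 6 libraries, and the script was tested on simulated data. Fold changes on this scale understate low genes. Whole reads could be recovered from the FPKM steps for 100% of the 31521 genes with a nonzero value (within 0.02 of a whole read). They gave depth, mitochondrial percent and, as an alternative, limma-voom. Correlations used 100000 permutations within groups. The genes named are the 6, listed genes called at day 14 or 28 and 9 core clock genes in any case. For likeness they are the leading 5 by r among genes with an assigned symbol. Cyp2b1 and Pecam1, among the listed names, were not matched. No separate origin of the replicates beyond "bio rep" is stated. Promoters are RefSeq's (GRCr8) and were not mapped to the authors' build. Alternatives changed the pseudocount, filter, libraries, scaling and model.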

Additional observations from a re-analysis of the deposited data

Results flagged for a closer look

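In a search of 60 sets of gene and group (24 of them for the 6 clock output genes), 9 values lay far from those of the other 5 libraries of their group, by the gap to the nearest other library as a share of the group's range. Chance would mark about 1 in 20 such groups if values were normally distributed. FPKM was used without a log here, and the rate over all genes was not measured. All 9 values were the highest of their group and came from silica day 14 replicate 2 or silica day 28 replicate 3. In silica day 14 replicate 2 the values were 92.3 FPKM for Dbp, 13.3 for Hlf, 83.7 for Nr1d1, 11.5 for Per2, 22.1 for Per3 and 21.6 for Cry2. In silica day 28 replicate 3 they were 18.1 FPKM for Dbp, 15.5 for Nr1d2 and 12.0 for Per3. The sets are not independent, since these genes share libraries.

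The silica difference itself changed between day 14 and day 28, by the interaction in limma, for 3 listed genes: by 0.65 for Arntl, by -1.10 for Per3 and by -0.61 for Por on the log2 scale (adjusted p = 0.0408, 0.0291 and 0.0220). With the mitochondrial percent as a covariate the changes were 0.59, -0.82 and -0.69, and 0 of the 3 passed (adjusted p = 0.208, 0.231 and 0.117). No cause was tested.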

How the results depend on the processing

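At day 14 the log2 differences of the 6 clock output genes had the same sign in all 21 alternatives run for them (Dbp 2.11 to 2.65, Nr1d1 2.02 to 2.33, Nfil3 -0.86 to -0.55), and Per3 and Cry1 passed in all 22 alternatives run for them. Where the length trend of each library was removed, Per2 and Clock turned to 0.033 and 0.014. For the day 28 comparison, where 2 of the 6 genes passed, 1 passed with no filter on low values and 1 with the replicate block (Nr1d1 missed it, adjusted p = 0.0538), and 0 passed at a threshold of 0.01, with only the groups compared, with the mitochondrial percent as a covariate or without the 3 saline libraries of high mitochondrial percent, and the range over single libraries left out was 0 to 2. The 2 core clock genes called at day 28 became 0 in these last 4 settings and 0 to 4 over libraries left out. For the change of the silica difference, 2 core clock genes became 1 with no filter, with the replicate block or with the length trend removed, 0 at 0.01, with the covariate or without the 3 libraries, and 0 to 3 over libraries left out.

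Other signs also turned. Those of gene differences were of values not called, and the correlation of Dbp with Nr1d1, which had passed by r, turned within the saline groups. At day 28, Dbp ranged from -0.13 to 0.17 and Hlf from -0.031 to 0.087 over libraries left out, and Hlf was -0.019 without the 3 libraries and -0.148 with the covariate. Per3 at day 28 ranged from -0.155 to 0.086 over libraries left out and was 0.371 without the 3 libraries, 0.301 with the covariate, 0.038 with libraries scaled to the same median, 0.013 with the length trend removed and 0.029 with limma-voom. The change of Bhlhe41 was -0.083 without the 3 libraries and -0.146 with the covariate. Between the saline groups Tef was -0.212 with the covariate, against 0.49. For Dbp with Arntl, r was -0.507 without the 2 farthest libraries but with group means that include them. It was -0.140, -0.044 and -0.916 within saline day 14, saline day 28 and silica day 28. For Dbp with Nr1d1, rho was 0.407, and r was 0.227 without the 2 libraries but with the same group means. Within saline day 14 and saline day 28 r was -0.047 and -0.762. The cause of these changes was not tested.

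Over all genes, 911 were called at day 14 (363 to 1444), 2872 at day 28 (26 to 4429), 2071 for the change (2 to 3286) and 5255 between the saline groups (35 to 6346), in brackets the lowest and highest over all alternatives. The lowest counts at day 28 came from the mitochondrial covariate (26) and the 3 libraries left out (60). With the replicate block the counts were 656, 2084, 1227 and 4732. For the replicate pairing, deviations of same-numbered libraries of different groups correlated with r from -0.296 to 0.127 over 36 pairs, 3 of them over 0.1, and 5 of 36 combinations of library and group correlated best with the same number. The numbers were therefore not taken to pair animals. Levels rescaled to TPM moved no group ratio by more than its spread. The planned count models, edgeR and DESeq2, were not run, because the deposited unit is FPKM. Limma-voom on recovered reads was added in their place after the data were seen. FPKM carries no error of its own, so precision is that of 6 libraries a group, and the hour of collection cannot be told apart from the groups.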

Other observations

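In saline lungs, day 28 against day 14, 3 of the 10 genes reported as REV-ERB targets in mouse were called lower. Of all 20856 genes, 2312 were called lower, and 25.2% were called in either direction. Clock fell by 0.60, the matrix metalloproteinase gene Mmp9 by 0.59 and the lipoprotein lipase gene Lpl by 0.45 (limma, adjusted p = 0.0151, 0.0334 and 0.0270). Alas1 was higher by 0.67 (adjusted p = 0.0284). The mitochondrial percent was also higher in saline day 28 (5.53% against 2.57%), and 0 of these 4 genes passed with it as a covariate (Clock -0.49, Mmp9 -0.22, Lpl -0.08 and Alas1 0.28, adjusted p from 0.369 to 0.848) or without the 3 saline libraries of high mitochondrial percent (-0.49, -0.36, -0.13 and 0.28, adjusted p from 0.186 to 0.630).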
